A study of Homo sapiens with 4 samples.

Results

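A set of 10 genes that place DNA methylation or keep transposons silent was followed through RNA bound by a double-stranded RNA (dsRNA) antibody and through total RNA of a human lung cancer cell line. They are UHRF1, DNMT1, DNMT3A, DNMT3B, SETDB1, TRIM28, EHMT1, EHMT2, MORC2 and MPHOSPH8, 10 of the 27575 gene names found in either count table. They were chosen by name, as the regions that the deposited annotation files under these names. That gave 1312 of 3814162 regions in the table of antibody-bound RNA and 1009 of 2310971 regions in the table of total RNA.

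The cells were NCI-H1944, an established lung adenocarcinoma line labelled wild type. One culture received 100 nM of the MPS1 kinase inhibitor BAY-1217389 (MPS1i) for 48 h and the other the solvent DMSO, and both were then kept for 24 h after washout. J2 is an antibody that binds dsRNA, and RNA recovered with it formed the J2 libraries. RNA from the 10% of each lysate set aside before that step formed the Input libraries. The 4 groups were MPS1i J2, DMSO J2, MPS1i Input and DMSO Input. With 1 library in each, every ratio below compares libraries and not conditions, no ratio has a replicate check and no p-value was computed.

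DNA methylation at CpG sites is copied after each round of replication. UHRF1 recognises the half-methylated sites on new DNA and brings in DNMT1, which restores the mark, while DNMT3A and DNMT3B place methylation at sites that had none. Many transposons are also held down through histone H3 lysine 9 methylation. TRIM28 is recruited by KRAB zinc finger proteins and brings in the methyltransferase SETDB1, EHMT1 (GLP) and EHMT2 (G9a) form a heterodimeric H3K9 methyltransferase, and MPHOSPH8 is the chromodomain subunit of the HUSH complex, with which the ATPase MORC2 works.

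Promoter sequence was looked up for all 10 genes, because UHRF1 had the lowest ratio of the set in J2 and because a counted region lay over the MORC2 start. The RefSeq promoter table on GRCh38.p14 held 17 windows for 9 of the 10 genes, and the 250 bases before each start site were searched on both strands. The motifs were 4 E2F-type 8-mers (TTTCCCGC, TTTCGCGC, TTTGCCGC and TTTGGCGC) and the cell cycle homology region (CHR) core TTTGAA. An E2F-type 8-mer was found in 2 windows, both of UHRF1, and in 2.79% of all 35116 windows. A CHR core was found in 0 windows of these genes and in 13.3% of all windows. A match describes letters in a window and is not evidence of binding, and no match says only that these letters are not in it. The UHRF1 window shown here lies at chr19:4909894-4910143 on the plus strand, with the match to TTTCGCGC in capitals. The MORC2 window lies at chr22:30968775-30969024 on the minus strand and has no match.
UHRF1: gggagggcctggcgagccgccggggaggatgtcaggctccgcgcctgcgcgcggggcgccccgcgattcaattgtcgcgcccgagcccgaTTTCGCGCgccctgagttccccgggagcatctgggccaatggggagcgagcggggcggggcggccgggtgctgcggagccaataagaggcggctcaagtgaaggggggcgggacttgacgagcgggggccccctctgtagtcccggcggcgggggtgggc
MORC2: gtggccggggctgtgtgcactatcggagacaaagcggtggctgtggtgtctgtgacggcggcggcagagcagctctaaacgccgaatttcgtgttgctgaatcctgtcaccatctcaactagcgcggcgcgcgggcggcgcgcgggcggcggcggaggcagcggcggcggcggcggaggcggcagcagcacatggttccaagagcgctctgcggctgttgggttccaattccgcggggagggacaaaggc
The match in UHRF1 begins 160 bases before that start site, and a match to TTTCCCGC on the opposite strand begins 14 bases before another UHRF1 start. The share of G and C was 75.2% with 32 CpG in the UHRF1 window and 68.0% with 31 CpG in the MORC2 window.

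Summed counts were 6697479 for MPS1i J2, 9793355 for DMSO J2, 4844956 for MPS1i Input and 6381610 for DMSO Input, and a gene's counts were divided by these sums to give values per 1e6 counts (CPM). Regions with reads numbered 1176736 in MPS1i J2 and 1208576 in DMSO J2, against 484849 in MPS1i Input and 940751 in DMSO Input, so MPS1i Input drew its reads from fewer places. The share of counts on the strand of a gene was 46.1% and 54.5% in MPS1i J2 and DMSO J2, and 39.0% and 42.4% in MPS1i Input and DMSO Input. The median log2 ratio of MPS1i to DMSO over all measured genes was not 0 but -0.26 in J2 and -0.26 in Input, and the members are read against it. Of the lung epithelium markers, 6 of 7 had regions, with sums of 328 and 506 in MPS1i J2 and MPS1i Input, and of 606 and 701 in DMSO J2 and DMSO Input; KRT19 was at 0 in every library. Of the leukocyte markers, 4 of 5 had regions, and they summed to 13 in each MPS1i library, and to 2 in DMSO J2 and 0 in DMSO Input. Likewise 4 of the 5 fibroblast markers had regions, and they summed to 269 and 152 in MPS1i J2 and MPS1i Input, and to 22 and 21 in DMSO J2 and DMSO Input, nearly all of it FAP, with COL1A1 at 0 in every library. The part of these markers, of the number of regions with reads and of the gene-strand share in the results below was not tested.

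In J2, all 10 genes had a lower CPM in MPS1i than in DMSO, though TRIM28, at 0.597 in MPS1i J2 and 0.613 in DMSO J2, differed by far less than its counting error. The rule for a call, higher or lower, asked for 50 counts or more over both libraries, a difference of 2-fold or more, and an exact 95% counting interval of the ratio that left out 1. By that rule UHRF1, DNMT3A, EHMT1 and SETDB1 were lower in MPS1i J2, which is 4 of the 8 genes with enough counts, and 0 were higher. Over all 11837 genes measured the share called was 22.4% lower and 13% higher. The median log2 ratio of the 8 measured members was -1.01. In Input, DNMT3A, TRIM28 and MORC2 were lower in MPS1i, 3 of 8 measured, and 0 were higher, with 18.2% lower and 10.5% higher over all 10774 genes measured. The median of those 8 was -0.76, and all 10 members had log2 ratios below 0, although DNMT3B turned to 0.12 once the median of all genes was centred on 0. The 10 genes were summed over regions on the gene's own strand, nearly all of them intronic, so the values describe unspliced RNA more than mature transcripts. In such bulk RNA, fewer cells making a transcript and less of it per cell cannot be told apart.

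**Figure D1:**
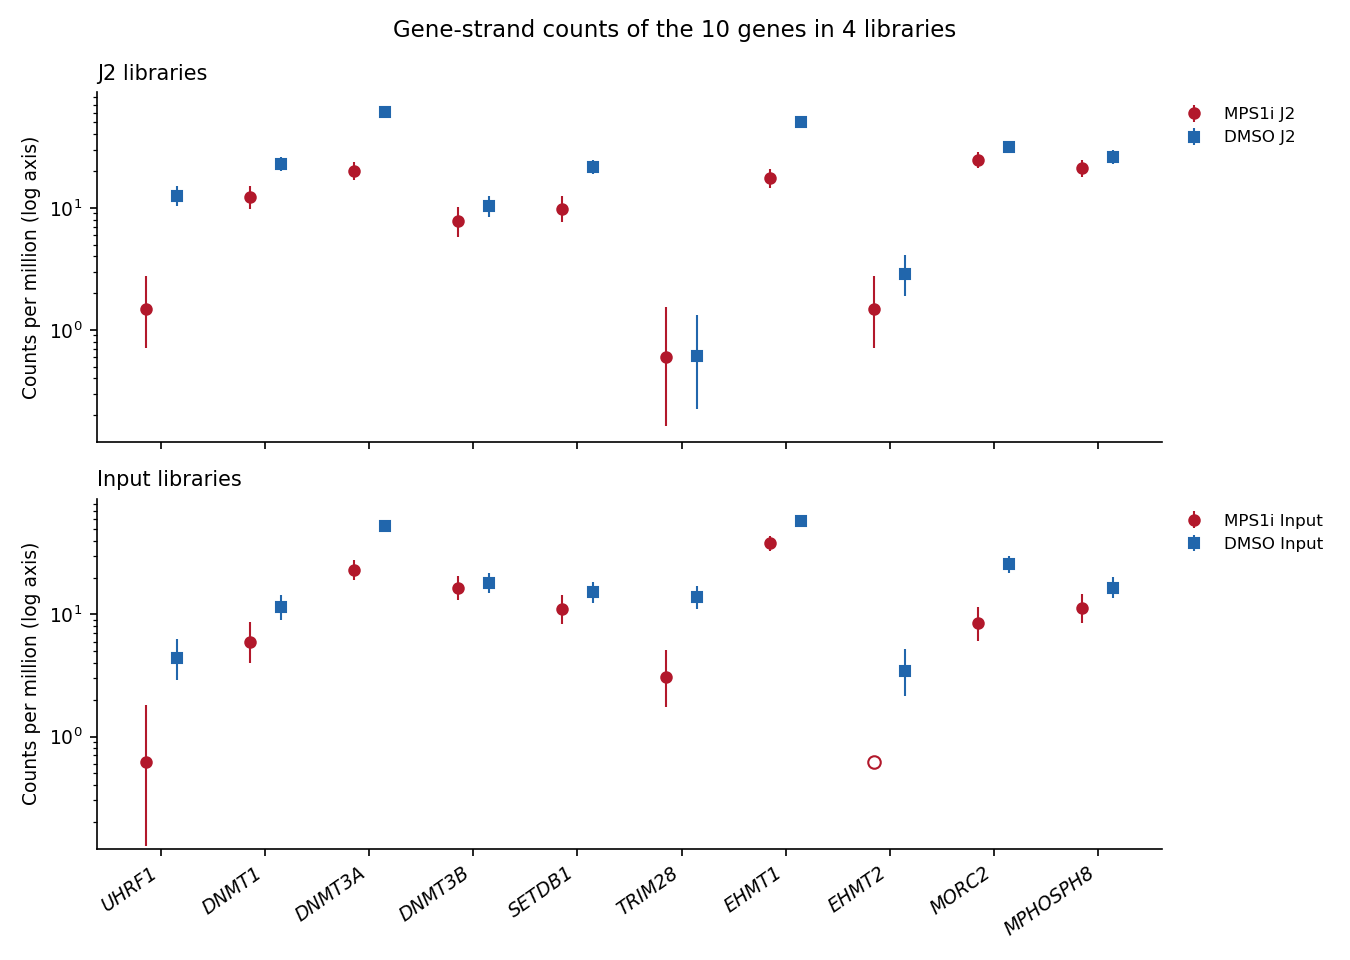
CPM (log axis) of the 10 genes in the J2 libraries (upper panel) and the Input libraries (lower panel), MPS1i as circles and DMSO as squares, with exact 95% Poisson counting intervals; the open circle marks a count of 0 drawn at the floor of 3 counts. In J2 the widest gap is that of UHRF1, with 1.49 CPM in MPS1i J2 and 12.6 CPM in DMSO J2, while TRIM28 is near the floor in both.

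Maintenance methylation genes came first. UHRF1 (chr19:4903080-4962154, plus strand, GRCh38) had 10 counts in MPS1i J2 and 123 in DMSO J2, and 3 counts in MPS1i Input and 28 in DMSO Input. Both MPS1i libraries were the low ones. The log2 ratio of MPS1i to DMSO was -3.01 in J2 (95% counting interval -4.17 to -2.14), the lowest of the 10. Input gave -2.63 (-5.19 to -1.13) on 31 counts in all, under the minimum for a call. The sum did not rest on 1 place: 5 regions had reads in MPS1i J2 against 24 in DMSO J2, and 24 of the 25 regions with reads were lower in MPS1i. Across all genes the regions with reads in MPS1i J2 came to 73.7% of those in DMSO J2, and for UHRF1 to 20.8%. The most-read places lay in intron 2, where a region at chr19:4920567-4920833 had 0 counts in MPS1i J2 and 16 in DMSO J2 and its Input counterpart at chr19:4920568-4920829 had 0 in MPS1i Input and 8 in DMSO Input. Another region in that intron, at chr19:4914072-4914399, had 4 counts in MPS1i J2 and 16 in DMSO J2.

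Only some of the UHRF1 gene carries its name in the files, since other stretches are filed under neighbouring start sites. Summing every plus-strand region over the gene body gave 54 counts in MPS1i J2 and 583 in DMSO J2, and 54 in MPS1i Input and 189 in DMSO Input. The log2 ratio was then -2.87 (-3.31 to -2.48) in J2 and -1.40 (-1.87 to -0.97) in Input. Both were called lower. With the gene body split into 3 equal parts, the J2 ratio was -2.95 in the first, -2.90 in the middle and -2.79 in the last part. By the same gene-body sums, 3 of 8 measured members were lower in J2 (19.9% of all genes were lower and 15.4% higher) and 5 of 9 in Input (16.1% lower and 12.3% higher), with 0 members higher in either.

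**Figure D2:**
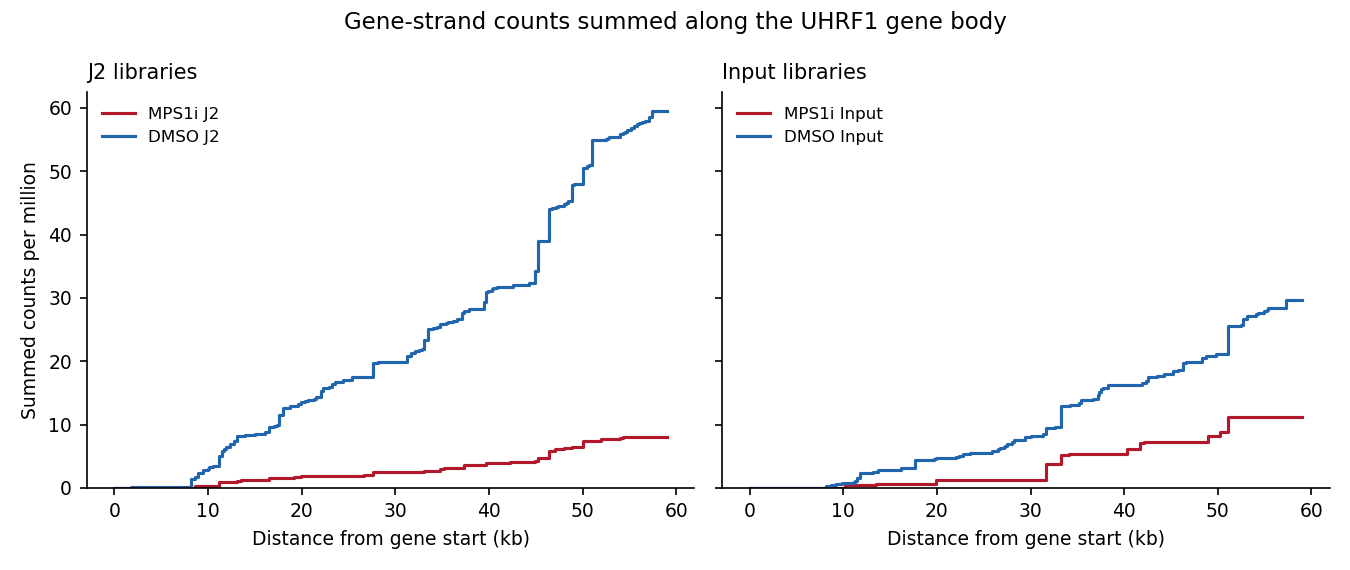
CPM on the gene strand, summed from the gene start along the UHRF1 gene body (distance in kb), in the J2 libraries (left) and Input libraries (right), with MPS1i in red and DMSO in blue. The DMSO J2 line climbs in steps along the whole gene to 59.5 CPM while the MPS1i J2 line ends at 8.06 CPM; in Input the ends are 11.1 CPM in MPS1i and 29.6 CPM in DMSO.

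DNMT1 (chr19:10133345-10231286, minus strand), the maintenance methyltransferase itself, had 82 counts in MPS1i J2 and 224 in DMSO J2, and 29 in MPS1i Input and 73 in DMSO Input. Its log2 ratio was -0.90 (-1.28 to -0.53) in J2 and -0.92 (-1.61 to -0.30) in Input. Both intervals lay below 0, yet neither ratio reached 2-fold, so DNMT1 was not called. Gene-body sums of 95 and 299 counts in MPS1i J2 and DMSO J2, and of 43 and 147 in MPS1i Input and DMSO Input, gave -1.10 (-1.45 to -0.77) and -1.36 (-1.90 to -0.88), both past 2-fold. The most-read region, at chr19:10182077-10182377 in intron 1, had 28 counts in MPS1i J2 and 50 in DMSO J2, and without it the J2 ratio was -1.13.

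Of the genes that place new methylation, DNMT3A was called lower in both kinds of library and DNMT3B in neither. DNMT3A (chr2:25227855-25342590, minus strand) had 135 counts in MPS1i J2 and 594 in DMSO J2, and 113 in MPS1i Input and 339 in DMSO Input. MPS1i was again the low library in each pair, at -1.59 (-1.87 to -1.32) in J2 and -1.18 (-1.51 to -0.88) in Input. Many of these regions do not lie in DNMT3A. In J2, 205 of its 292 regions were outside the gene body, and they held 82 counts in MPS1i and 435 in DMSO, a log2 ratio of -1.85. The 87 regions inside it held 53 counts in MPS1i and 159 in DMSO, a ratio of -1.03 (-1.51 to -0.58). Taking every region over the gene body, whatever its filed name, gave 100 counts in MPS1i J2 and 255 in DMSO J2. That ratio was -0.80 (-1.15 to -0.46), which ends the J2 call. In Input the gene body held 49 counts in MPS1i and 179 in DMSO, or -1.46 (-1.96 to -1.01). With the gene body in 3 equal parts, the J2 ratio was 0.10 (-0.47 to 0.65) in the first. It was -1.22 in the middle and -1.46 in the last. With the median of all genes centred on 0, the Input ratio of the filed regions was -0.93, which ends the Input call.

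DNMT3B (chr20:32762385-32809356, plus strand) had 52 counts in MPS1i J2 and 101 in DMSO J2, and 80 in MPS1i Input and 116 in DMSO Input. Its ratios of -0.40 (-0.92 to 0.09) and -0.14 (-0.57 to 0.28) had intervals that included 0. Overlapping intronic regions of the 2 tables went opposite ways, though they share only part of their bases and the counts may come from different ones. In J2 the region at chr20:32782031-32782533, over a Tigger7 DNA transposon, had 17 counts in MPS1i and 1 in DMSO, and in Input the region at chr20:32782199-32782712 had 0 in MPS1i and 17 in DMSO. Of 3 equal parts of the gene body, the first had 14 counts in MPS1i J2 and 70 in DMSO J2. The middle one, where these regions lie, had 35 in MPS1i J2 and 26 in DMSO J2.

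Of the KRAB zinc finger corepressor pair, SETDB1 was called lower in J2 and TRIM28 in Input. SETDB1 (chr1:150926263-150964744, plus strand), the H3K9 methyltransferase of the pair, had 66 counts in MPS1i J2 and 211 in DMSO J2, and 54 in MPS1i Input and 97 in DMSO Input. The J2 ratio was -1.12 (-1.55 to -0.72), and the Input ratio of -0.44 (-0.96 to 0.05) had an interval that included 0. Of the J2 counts, 13 in MPS1i and 105 in DMSO came from Alu regions, a log2 ratio of -2.42 (-3.42 to -1.63). A whole region was taken as Alu when any repeat named for it was Alu, FLAM, FRAM or FAM. Other regions held 53 counts in MPS1i and 106 in DMSO, a ratio of -0.45 (-0.96 to 0.04). Most of the 105 DMSO counts in Alu regions came from the regions named next. The most-read J2 region, at chr1:150937405-150937905 over L1MB2, FLAM_C and L1MB7 sequence, had 3 counts in MPS1i and 52 in DMSO, and a second at chr1:150947530-150947780 in an AluJb had 3 in MPS1i and 34 in DMSO. Without the most-read region the J2 ratio was -0.78, and without regions that carry a repeat it was -0.32, so the call ends in both cases. Over the whole gene body, 157 counts in MPS1i J2 and 631 in DMSO J2 gave -1.46 (-1.72 to -1.20).

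TRIM28 (chr19:58544091-58550722, plus strand), the corepressor and the shortest gene of the set, had 4 counts in MPS1i J2 and 6 in DMSO J2, too few for a ratio to be read. Input held 15 counts in MPS1i and 88 in DMSO, a log2 ratio of -2.12 (-3.05 to -1.36). All 88 of the DMSO Input counts came from 1 region of 780 bp in intron 3 (chr19:58546225-58547004), which had 9 counts in MPS1i Input. The other 6 MPS1i Input counts lay in a region of 78 bp in intron 2 that had 0 in DMSO Input. Leaving out the intron 3 region turned the ratio to 4.10 on those 6 counts, so the TRIM28 value describes that 1 region.

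The EHMT pair, which mono- and dimethylates H3K9, had very different depth. EHMT1 (chr9:137618963-137870016, plus strand), the longest gene of the set, had 117 counts in MPS1i J2 and 492 in DMSO J2, and 185 in MPS1i Input and 370 in DMSO Input. The J2 ratio of -1.52 (-1.83 to -1.23) was called lower, and the Input ratio of -0.60 (-0.87 to -0.34) did not reach 2-fold. Of 17 EHMT1 regions with at least 10 J2 counts, 16 were lower in MPS1i, which is 94.1%, against 68.8% of such regions over all genes. That minimum adds both libraries and is reached mostly through DMSO J2, so the share restates the gene sum and is no separate support. In Input, 4 of 10 such EHMT1 regions were lower in MPS1i, which is 40%, against 47.4% over all genes. The regions filed under EHMT1 lie almost entirely in the first of 3 equal parts of the gene. Over the gene body there were 405 counts in MPS1i J2 and 1082 in DMSO J2, or -0.87 (-1.04 to -0.70), which ends the call. The first and last parts were at -1.51 (-1.82 to -1.22) and -1.24 (-1.69 to -0.82), while the middle part, with 230 counts in MPS1i J2 and 391 in DMSO J2, was at -0.22 (-0.46 to 0.02).

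EHMT2 (chr6:31879759-31897687, minus strand) had 10 counts in MPS1i J2 and 28 in DMSO J2, a log2 ratio of -0.89 (-2.14 to 0.15) under the count minimum. Input held 0 counts in MPS1i and 22 in DMSO. With 3 counts in place of the 0, EHMT2 was 5.57-fold lower in MPS1i Input. The exact 95% counting interval of its log2 ratio ended at -2.06, so a smaller difference is also possible. Its 22 counts are also under the minimum for a call. The DMSO Input counts were spread over 8 regions.

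**Figure D3:**
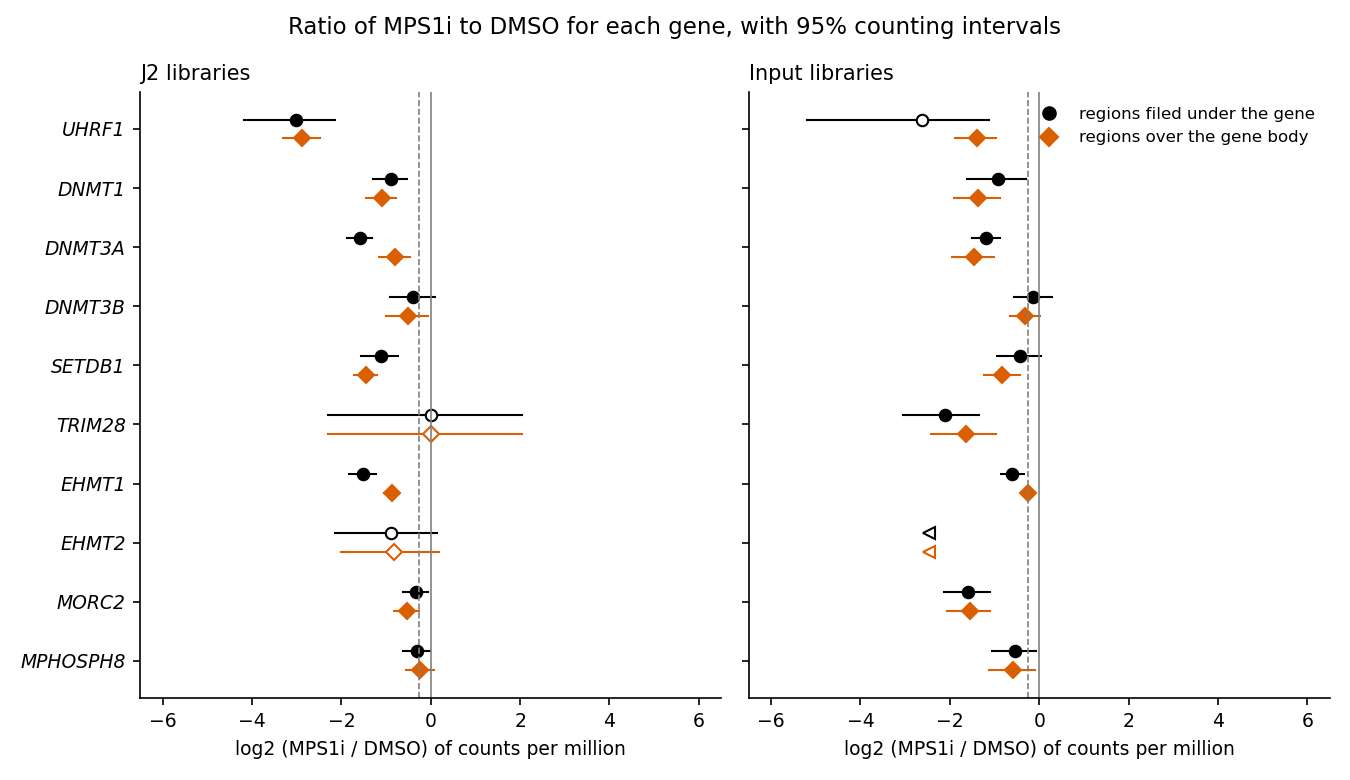
Log2 ratio of MPS1i to DMSO for each gene in J2 (left) and Input (right), with 95% counting intervals. Black circles are from regions filed under the gene and orange diamonds from all regions over the gene body on its strand. Open symbols had fewer than 50 counts, and triangles put 3 counts in place of a count of 0. The dashed line is the median of all genes. UHRF1 in J2 stands at -3.01 and -2.87 by the 2 sums, whereas DNMT3A and EHMT1 move to -0.80 and -0.87 over the gene body.

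Of the measured members, the HUSH genes had the J2 ratios nearest to the median of all genes. MPHOSPH8 (chr13:19633681-19673459, plus strand), which binds methylated H3K9, had 141 counts in MPS1i J2 and 256 in DMSO J2, and 55 in MPS1i Input and 106 in DMSO Input. Its ratios were -0.31 (-0.62 to -0.01) in J2 and -0.54 (-1.05 to -0.07) in Input, neither past 2-fold. The most-read region, at chr13:19647313-19648157 in intron 3, had 52 counts in MPS1i J2 and 45 in DMSO J2, and without it the J2 ratio was -0.69.

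MORC2 (chr22:30925130-30968298, minus strand) had 166 counts in MPS1i J2 and 306 in DMSO J2, a ratio of -0.33 (-0.62 to -0.06) that was not called. Input held 41 counts in MPS1i and 164 in DMSO, a ratio of -1.59 (-2.13 to -1.10) that was called lower. The MPS1i Input library was the low one of the 4. Most Input regions shared that direction, with 37 of the 43 that had reads lower in MPS1i. Over all genes the corresponding number was 480344 of 653129 regions. Before the MORC2 start, over the promoter window printed above, an Input region at chr22:30968774-30969065 had 0 counts in MPS1i and 16 in DMSO. The J2 promoter region had 25 counts in MPS1i and 18 in DMSO, a ratio of 1.01 (0.09 to 1.98). When each region was counted at most once, the Input ratio of MORC2 was -0.49, which ends the call. The median of all genes counted that way was -0.57 in Input. Regions with reads in MPS1i Input came to 35.9% of those in DMSO Input for MORC2, and to 39.6% over all genes.

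The ratio of J2 to Input was then taken within each treatment. It compares shares of library counts and is not the fraction of a transcript that the antibody recovered. Mitochondrial reads made up 0.836% of MPS1i J2 and 0.608% of DMSO J2, against 20.2% of MPS1i Input and 24.3% of DMSO Input. The ratios of the genes here also move with that share. In MPS1i cells, MORC2 at 1.54 (1.05 to 2.08) and DNMT1 at 1.02 (0.41 to 1.70) were called higher in J2, and EHMT1 at -1.13 (-1.47 to -0.79) and DNMT3B at -1.08 (-1.62 to -0.57) lower. That is 2 higher and 2 lower of 7 measured, with 18.9% higher and 9.81% lower over all genes and a median over all genes of 0.30. With each region counted at most once, MORC2 turned to -0.21, and in regions matched between the tables to -1.85. DNMT1 was past the rule under 5 of 13 alternatives and at 0.67 (0.14 to 1.23) over the gene body. Its call also ended when mitochondrial reads were left out of the scaling. In DMSO cells UHRF1 was called higher in J2 at 1.50 (0.92 to 2.16) and TRIM28 lower at -4.39 (-5.98 to -3.31), 1 of 10 in each direction, with 20.6% higher and 10.1% lower over all genes and a median of 0.34. The UHRF1 call held under 11 of 13 alternatives. It ended with 1 read per region and in matched regions, and the lowest value was 0.41. DNMT1 in DMSO cells was at 0.99 (0.61 to 1.40), just under 2-fold. The TRIM28 value again rests on the intron 3 region of Input and turned to 1.70 without it. The 2 tables have regions called separately, so these ratios also move with how much sequence each table covers. DNMT1 covered 10.8 kb in J2 and 4.83 kb in Input, and UHRF1 covered 4.76 kb in J2 and 2.08 kb in Input.

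**Figure D4:**
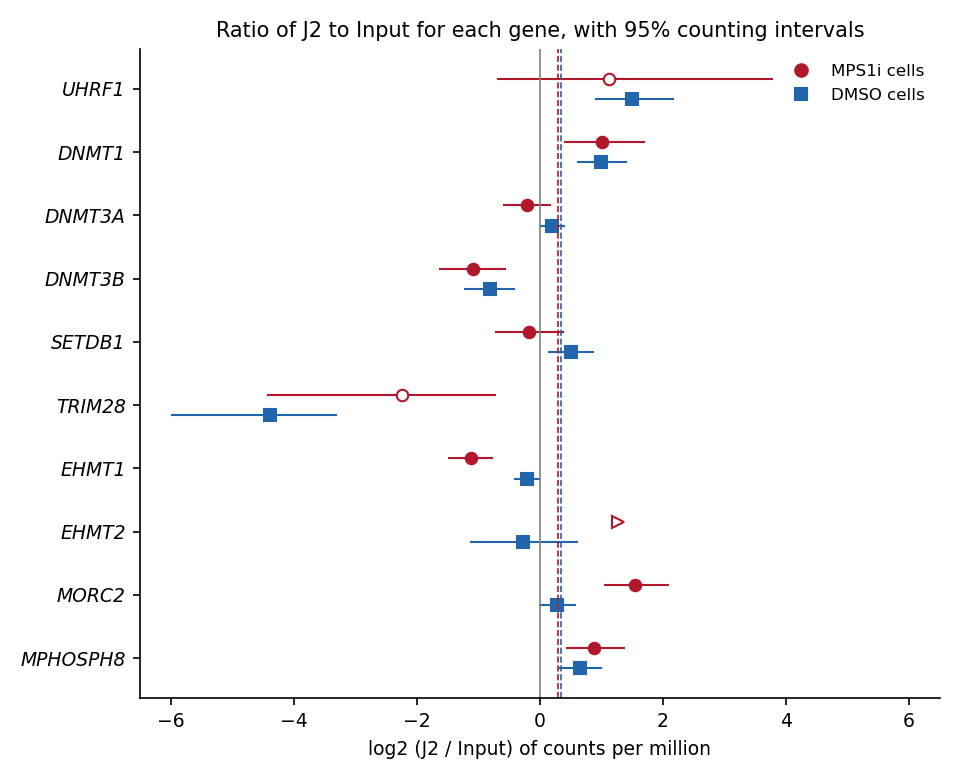
Log2 ratio of J2 to Input for each gene in MPS1i cells (red circles) and DMSO cells (blue squares), with 95% counting intervals; open symbols had fewer than 50 counts, the triangle for EHMT2 is a bound against 0 Input counts, and dashed lines are the medians of all genes. MORC2 is at 1.54 in MPS1i cells and 0.28 in DMSO cells, and TRIM28 at -4.39 in DMSO cells is the lowest point.

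The change of that ratio between treatments was called for MORC2, at 1.26 (0.70 to 1.82) on the log2 scale, 1 of 8 measured members, and for 0 members in the lower direction. Over all genes 9.63% were called higher and 8.92% lower, so the count among members is near the background. EHMT1 at -0.92 (-1.30 to -0.53) and SETDB1 at -0.68 (-1.30 to -0.06) had intervals below 0 without reaching 2-fold. UHRF1 had 3 MPS1i Input counts, and its value of -0.38 (-2.22 to 1.46) could not be read. By gene-body sums the change for UHRF1 was -1.47 (-2.06 to -0.88), from a J2 to Input ratio of -0.47 (-1.04 to 0.10) in MPS1i cells and 1.00 (0.77 to 1.25) in DMSO cells. MORC2 by the same sums was at 1.01 (0.48 to 1.55). Where only regions matched between the tables by 90% reciprocal overlap were used, MORC2 had 2 matched pairs and its change turned to -2.26.

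Class and strand were also followed. On the gene strand in J2, introns held 694 of the 925 counts in MPS1i and 2157 of the 2679 in DMSO, and intergenic regions filed under the genes held 142 and 338. Regions filed as 3' UTR, 5' UTR or exon together held 7 counts in MPS1i J2 and 36 in DMSO J2, and non-coding exons 10 in MPS1i J2 and 28 in DMSO J2. The opposite strand held 735 counts in MPS1i J2 and 1704 in DMSO J2, and 334 in MPS1i Input and 686 in DMSO Input. These were concentrated: a single minus-strand region of 34.3 kb, which spans 89.1% of SETDB1, had 322 counts in MPS1i J2 and 1021 in DMSO J2, a log2 ratio of -1.12 that was itself past the rule. Its Input counterpart of 33.5 kb had 133 counts in MPS1i and 215 in DMSO, at -0.29. MPHOSPH8 had 333 opposite-strand counts in MPS1i J2 and 602 in DMSO J2, or -0.31 (-0.50 to -0.11). Its minus-strand region of 25.7 kb held 161 of them in MPS1i J2 and 175 in DMSO J2, and a region outside the gene body at chr13:19688440-19688937 held 8 in MPS1i J2 and 42 in DMSO J2, which was past the rule. DNMT1 had a plus-strand region of 85.5 kb with 25 counts in MPS1i J2 and 29 in DMSO J2, and 1 of 61.6 kb in Input with 11 in MPS1i and 56 in DMSO. UHRF1 had 3 opposite-strand counts in MPS1i J2 and 1 in DMSO J2, and EHMT1 had 1 in MPS1i J2 and 4 in DMSO J2. MORC2 had 25 in MPS1i J2 and 30 in DMSO J2. Among the regions filed under each name, counts on both strands were thus found for SETDB1, MPHOSPH8, DNMT1 and MORC2. UHRF1 and EHMT1 had few on the opposite strand, but there their J2 regions covered only 0.392 kb and 9.44 kb. The same length was 34.4 kb for SETDB1, 66.5 kb for MPHOSPH8, 85.5 kb for DNMT1 and 36.7 kb for MORC2. These counts were not scaled to covered length, so they do not rank the genes. Opposite-strand regions over a gene body but filed under another name were not summed. Much of UHRF1 and EHMT1 was therefore not examined on that strand. Part of the MPHOSPH8 sum lies beyond its gene body, such as chr13:19701508-19701976, with 29 counts in MPS1i J2 and 22 in DMSO J2.

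Repeat content differed among the genes. Alu regions are again those with any repeat named Alu, FLAM, FRAM or FAM, counted whole. They held 10.0% (1 of 10, Wilson 95% interval 1.79% to 40.4%) of the UHRF1 J2 counts in MPS1i and 22.0% (27 of 123, 15.5% to 30.1%) in DMSO. For SETDB1 the shares were 19.7% (11.9% to 30.8%) in MPS1i J2 and 49.8% (43.1% to 56.5%) in DMSO J2, intervals that did not overlap. Most of these DMSO J2 counts came from the regions at chr1:150937405-150937905 (3 in MPS1i and 52 in DMSO) and chr1:150947530-150947780 (3 and 34). The SETDB1 contrast thus rests on few places, and the first of them also carries L1MB2 and L1MB7. EHMT1 had 12.0% (7.26% to 19.1%) in MPS1i J2 and 6.30% (4.47% to 8.80%) in DMSO J2. Over all genes the shares were 17.1% in MPS1i J2 and 19.3% in DMSO J2. Other shares went the opposite way to SETDB1. In Input, Alu regions held 51.7% (34.4% to 68.6%) of the DNMT1 counts in MPS1i and 13.7% (7.61% to 23.4%) in DMSO. For all genes in Input these were 13.6% and 12.8%. Regions with any repeat held 55.8% (42.3% to 68.4%) of the DNMT3B counts in MPS1i J2 and 23.8% (16.5% to 32.9%) in DMSO J2, beside 42.7% and 44.5% over all genes. UHRF1 was lower in MPS1i J2 both within Alu regions, at -3.65 (-9.56 to -1.61), and outside them, at -2.80 (-4.04 to -1.88). The same held for the regions filed under DNMT3A, at -1.99 (-3.05 to -1.14) within and -1.53 (-1.83 to -1.25) outside. Most of those regions and of their counts lie outside the DNMT3A gene body, and the split was not made for the gene body alone.

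Other genes of these pathways were read from 4 lists with 66 genes. Of the DNA methylation partners, 8 of 13 measured were called lower and 0 higher in MPS1i J2, beside 22.4% lower and 13% higher over all genes, with a median log2 ratio of -1.19. USP7, which deubiquitinates and stabilises UHRF1 and DNMT1, had 115 counts in MPS1i J2 and 716 in DMSO J2, or -2.08 (-2.39 to -1.80), and 82 in MPS1i Input and 334 in DMSO Input, or -1.62 (-2.00 to -1.28). HELLS, a chromatin remodeller needed for methylation of repeats, was at -1.37 (-1.54 to -1.20) in J2 and -1.10 (-1.39 to -0.82) in Input. Its partner CDCA7 was at -1.60 and UHRF1's paralogue UHRF2 at -1.34 in J2. TET1 (-1.37) and TET3 (-1.19), which oxidise methylcytosine, MBD3 (-1.30), a subunit of the NuRD complex, and PCLAF (-1.12), a PCNA-binding protein, made up the rest. The genes not called included the glycosylase TDG, at 0.39 (0.24 to 0.54), and the methyl-CpG binder ZBTB38, at 0.63 (0.55 to 0.70). In Input only USP7 and HELLS were called lower of 12 measured, beside 18.2% over all genes, and the median was -0.36.

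The HUSH and H3K9 methylation partners were near the median of all genes, with 3 of 21 called lower and 0 higher in MPS1i J2, beside 22.4% and 13% over all genes, and a median of -0.14. The demethylase KDM1A had 3 counts in MPS1i J2 and 55 in DMSO J2, or -3.44 (-5.97 to -2.03). CBX3 at -1.91 and CBX5 at -1.44, which are HP1 proteins that bind methylated H3K9, were the other two. TASOR, the scaffold of HUSH, was at -0.25 (-0.36 to -0.15). In Input 3 of 19 were lower and 3 higher, beside 18.2% and 10.5% over all genes. The lower ones were CBX3 at -1.81, the SETDB1 partner ATF7IP at -1.44 and ZNF644, a cofactor of the EHMT pair, at -1.07. The 3 called higher in MPS1i Input were CHD4 at 1.41, MORC4 at 1.21 and WIZ at 1.13. Of the 7 Polycomb repressive complex 2 genes, SUZ12 (-1.60), JARID2 (-1.54), RBBP4 (-1.29) and EZH1 (-1.11) were lower in MPS1i J2, 4 of 7 beside 22.4% over all genes, and 0 were higher. Their median was -1.11, and in Input SUZ12 (-1.28) and RBBP7 (-1.23) were lower, 2 of 6 measured beside 18.2% over all genes.

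Replication and S phase genes, listed because UHRF1 and DNMT1 act at replication forks, had 6 of 16 measured lower and 0 higher in MPS1i J2, beside 22.4% and 13% over all genes, with a median of -0.82. CDC45, part of the replicative helicase, had 19 counts in MPS1i J2 and 188 in DMSO J2, or -2.72 (-3.52 to -2.08), and 3 in MPS1i Input and 87 in DMSO Input, or -4.25 (-6.77 to -2.87). MCM5 at -2.09, GINS2 at -1.64, the transcription factor E2F1 at -1.44, RFC4 at -1.26 and CDC6 at -1.13 were the others in J2. Genes not called included PCNA, the sliding clamp, at -0.13 (-0.87 to 0.58), and TYMS, thymidylate synthase, at -0.08 (-0.63 to 0.45). In Input 6 of 12 were lower, beside 18.2% over all genes, and these were CDC45, MCM6 (-1.72), MCM3 (-1.68), E2F1 (-1.45), MCM2 (-1.32) and GINS2 (-1.20), with a median of -0.99. The lists were described by counts and medians, with no test of a list.

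**Figure D5:**
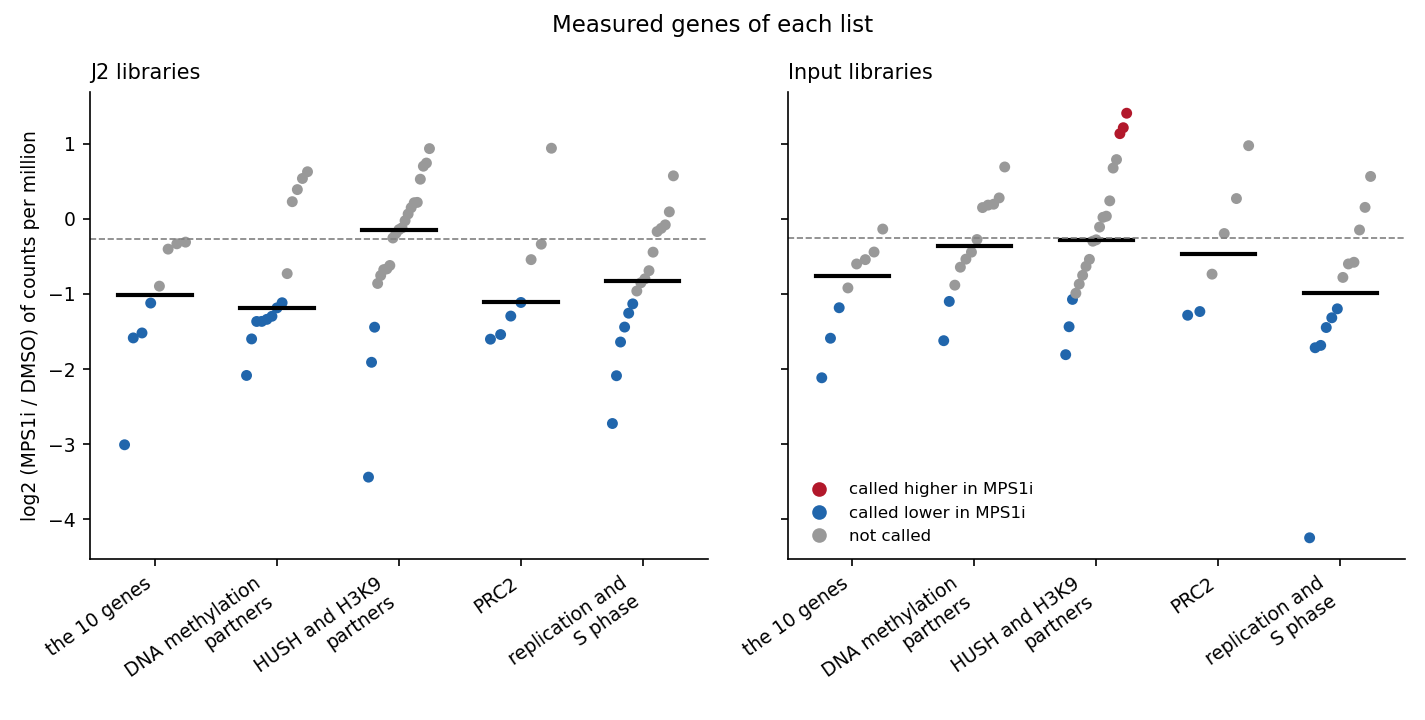
Log2 ratio of MPS1i to DMSO of every measured gene in the 10-gene set and the 4 lists, in J2 (left) and Input (right), ordered within each list; blue points were called lower in MPS1i, red higher, grey neither, bars are medians and the dashed line is the median of all genes. In J2 the DNA methylation partners have a median of -1.19 and the HUSH and H3K9 partners one of -0.14, beside -1.01 for the 10 genes.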

How the data were processed

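The authors deposited whole-number counts of reads for stranded regions of the genome, with separate tables for J2 and Input. Libraries were made with a SMARTer stranded total RNA kit, per the labels' protocols. Per the submitters' processing notes the build is GRCh38 and the tools include STAR, featureCounts, HOMER and the trimmers cutadapt, Trim Galore and Trimmomatic, with no versions. How regions were called, and whether duplicate reads were removed, is not given in the sources used here. Reads without molecular identifiers are not independent molecules, so intervals and floors cover counting error only.

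Regions were summed per filed gene name on the strand of the gene in GENCODE release 29, without the intergenic class, and scaled to the library's summed count. Ratios used a pseudocount of 0.5, with exact Clopper-Pearson 95% intervals on the 2 counts; the change of J2 over Input used a delta-method interval and asked for 50 counts over the J2 libraries and 20 over the Input libraries. For the folds and triangles given against a count of 0, 3 counts stood in for the 0, with no counting error included. Gene-body sums used bedtools 2.31.1, tables pandas 2.3.3, intervals SciPy 1.17.1, and TMM factors edgeR 4.0.16. The ratios were tested on simulated data. Partner genes were named where called, at most 8 per list and comparison, with a few uncalled ones, chosen after their values were seen, for contrast. The members, the lists and the comparisons were chosen with earlier results of these data known. Alternatives numbered 11 planned and 2 added after seeing the data.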

Additional observations from a re-analysis of the deposited data

How the results depend on the processing

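No paired analysis was possible because each of the 4 groups has 1 library. The count of members called lower in MPS1i J2, 4, was 3 or 4 under the 12 alternatives run for it, but not always of the same genes: DNMT1 was added with gene-body sums, without the most-read region and with 1 read per region, and DNMT3B without repeats and with 1 read per region. UHRF1 had a log2 ratio between -3.50 and -2.12 and was called under 11 of the 12, and under 1 read per region its counts were below the minimum. DNMT3A and EHMT1 each lost the J2 call under 1 of 12 (gene body). SETDB1 lost it under 4 of 12, which include centring the median of all genes on 0 (-0.86) and 1 read per region (-0.69). With 1 read per region the median of all genes in J2 was -0.52. The number of members called in Input, 3, was 5 of 9 measured with gene-body sums and 5 with a count minimum of 20. It was 1 of 6 measured with 1 read per region. DNMT1 was added in Input with both strands and without regions that carry a repeat. TRIM28 was lost there without the most-read region, and DNMT3A with the median of all genes centred on 0 (-0.93). Over all genes, 19.9% were lower in J2 and 16.1% in Input with gene-body sums. With 1 read per region these shares were 16.4% in J2 and 19.8% in Input. Shares over all genes are not given here for the other alternatives. The number in J2 over Input in MPS1i cells, 4, was 0 with 1 read per region and 0 in matched regions. In DMSO cells, 2 became 4 with both strands, 4 with gene-body sums, 1 without the most-read region and 0 with 1 read per region. It was 1 in matched regions, where the member called was DNMT1 and neither UHRF1 nor TRIM28. DNMT3B was added as lower without mitochondrial reads in the scaling, with TMM factors and with the median of all genes centred on 0. DNMT1 was added as higher without regions that carry a repeat. For the change of J2 over Input, 1 became 0 with both strands, with 1 read per region and in matched regions. It was also 0 with only regions filed under the gene inside its body (an alternative added later). With gene-body sums it was 2, MORC2 higher and UHRF1 lower. With a minimum of 20 it was 2, MORC2 and EHMT2, both higher. Among results past the rule, reversed values were those of TRIM28 in Input (4.10 without the most-read region, 1.69 with 1 read per region) and in J2 over Input in DMSO (1.70 and 0.86), and of MORC2 in J2 over Input in MPS1i (-0.21 with 1 read per region, -1.85 in matched regions) and in its change (-2.26 in matched regions). Without the most-read region, TRIM28 rests on few counts; the cause of the other reversals was not tested. Of the 36 member ratios not past the rule, 17 changed sign under at least 1 alternative. DNMT1 in J2 over Input in MPS1i was called under 5 of 13 alternatives. Depth limits EHMT2 in J2, TRIM28 in J2 and UHRF1 in Input, which held 38, 10 and 31 counts in the libraries compared.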
